A study of Saccharomyces cerevisiae with 8 samples.

Results

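The mating pheromone genes and receptors are the budding yeast (Saccharomyces cerevisiae) genes for the alpha-factor mating pheromone, the receptors for both pheromones, the cell surface agglutinins and the first parts of the response pathway. They were chosen by name, as 10 genes: MF(ALPHA)1, MF(ALPHA)2, STE3, STE2, SAG1, AGA1, FUS1, FUS3, FAR1 and GPA1. Counts were read for 7 of the 10, among 4928 features in all, and all 7 passed the filter on low counts that 4901 features passed. MF(ALPHA)2, FUS3 and FAR1 are not among these features and were not analysed here.

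All libraries came from a single strain background, a haploid of mating type alpha with the markers ade2::hisG, his3Δ200, leu2Δ0, lys2Δ0, met15Δ0, trp1Δ63 and ura3Δ0. In this strain the chromosomal SRB10 gene was replaced (srb10Δ::KanMX), and the centromeric plasmid pSH599 carried TRP1 with srb10as-1. Srb10 (also called Ssn3 or Cdk8) is the kinase of the Mediator complex, and the as-1 allele is its Y236G form, which the adenine analogue 1-NA-PP1 can block. DMSO, the solvent, served as the control, so every group carried the engineered kinase and the plasmid, and no strain with the normal kinase was included. The 4 groups were DMSO at steady state, 1-NA-PP1 at steady state, DMSO with heat shock, and 1-NA-PP1 with heat shock, with 2 libraries each. Cells diluted to an OD600 of 0.1 were kept at 30 °C until it reached 0.8 and then received 6 µM 1-NA-PP1 or DMSO for 12 min, and the heat shock groups stood at 37 °C for 12 min. Newly made RNA was labelled with 5 mM 4-thiouracil (4tU), a modified base that growing RNA chains take up, for 5 min, purified and sequenced, so that values report recent synthesis more than stored RNA.

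Gene counts per library summed to between 60372371 and 65134744 at steady state and to between 14680275 and 17743527 under heat shock, so rare transcripts were less precisely measured after heat shock. Levels are given as CPM, counts scaled to the same library total, after TMM scaling, which sets libraries on a common scale by their typical gene, and as CPM per kilobase of transcript where genes are compared. Changes are log2 ratios with their standard errors (SE), and a gene counted as changed where edgeR's quasi-likelihood test gave a Benjamini-Hochberg adjusted p under 0.05 over all tested genes. With this scaling every rise, fall or lack of change is relative to the typical gene. A change in newly made RNA common to all genes would not show. The labels do not state that the libraries of a group came from separate cultures, so p-values measure the spread between these libraries, which may be technical. Of the marker genes, ADE2, LEU2, MET17 (the gene of the met15 marker) and URA3 had 0 counts in all 8 libraries, as did HMRA1, a gene of the silent mating type cassettes. TRP1, the marker that the plasmid carries, had 1384 to 6136 counts per library. HIS3 and LYS2 are not among the features. SSN3, the gene of the Srb10 kinase itself, had 28397 to 222035 counts per library, and this strain carries it on the plasmid. Of 6 heat shock genes, 6 rose under heat shock with DMSO and 5 with 1-NA-PP1, led by the small heat shock protein gene HSP26 with log2 changes of 3.67 and 2.85. Of all tested genes 29.6% rose with DMSO and 25.3% with 1-NA-PP1.

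Haploid yeast cells exist in the mating types a and alpha, and each signals to the other by a secreted peptide. Alpha cells make alpha-factor and carry the a-factor receptor Ste3, whereas a cells make a-factor and carry the alpha-factor receptor Ste2. In alpha cells the activator alpha1 turns on the alpha-specific genes together with Mcm1, and the repressor alpha2 turns off the a-specific genes with Mcm1, Tup1 and Cyc8. Either receptor releases Ste4 and Ste18 from the G protein subunit Gpa1, a kinase cascade follows, and the transcription factor Ste12 switches on mating genes such as FUS1 and AGA1. No pheromone treatment is given in the labels, and the strain is of a single mating type.

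The sequences before 4 of the genes show which known regulator's letters stand there, and are in lower case with those letters in capitals. They were read 5′ to 3′ on each gene's strand from the R64 reference genome (sacCer3), in windows that end where the transcript annotation used by the study begins. That annotation does not state whether its starts count from 0 or 1, so a window may be off by 1 base. For MF(ALPHA)1 (chrXVI:193298-193597, plus strand) and STE3 (chrXI:114671-114970, minus strand) the whole 300 bases searched are shown, with a palindromic Mcm1 site in the first and the alpha1 site CAATGACA, as its reverse complement, in the second.
MF(ALPHA)1: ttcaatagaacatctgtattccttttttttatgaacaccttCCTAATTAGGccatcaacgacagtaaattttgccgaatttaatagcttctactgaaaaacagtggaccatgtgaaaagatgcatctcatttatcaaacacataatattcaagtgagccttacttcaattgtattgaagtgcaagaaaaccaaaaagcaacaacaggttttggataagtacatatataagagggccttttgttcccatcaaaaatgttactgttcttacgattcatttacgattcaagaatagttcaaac
STE3: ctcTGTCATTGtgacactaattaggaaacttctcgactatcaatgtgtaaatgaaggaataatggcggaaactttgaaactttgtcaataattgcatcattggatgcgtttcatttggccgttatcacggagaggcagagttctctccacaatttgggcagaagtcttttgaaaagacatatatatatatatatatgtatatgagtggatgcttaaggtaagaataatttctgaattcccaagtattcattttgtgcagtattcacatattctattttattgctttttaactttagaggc
For AGA1 (chrXIV:703462-703581, plus strand) and FUS1 (chrIII:71538-71657, plus strand) the last 120 bases are shown, with the Ste12 site TGAAACA in capitals.
AGA1: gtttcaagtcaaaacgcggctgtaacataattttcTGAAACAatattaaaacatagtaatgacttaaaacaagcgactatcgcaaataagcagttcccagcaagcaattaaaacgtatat
FUS1: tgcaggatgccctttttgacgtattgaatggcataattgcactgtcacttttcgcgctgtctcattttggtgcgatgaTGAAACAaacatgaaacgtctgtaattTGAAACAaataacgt

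These 3 motifs and the alpha2 site CATGTAA were searched on both strands, the Mcm1 site with any base at 2 of its positions, and no sites printed here overlap. The Ste12 site occurred in 345 of 4928 windows of 300 bases (7.0%), the alpha2 site in 204 (4.14%), the alpha1 site in 53 (1.08%) and the Mcm1 site in 23 (0.467%). FUS1 held 2 Ste12 sites, at 42 and 15 bases before its transcript start, and AGA1 held 1. SAG1 held an alpha2 site, and the windows of GPA1 and STE2 before their annotated transcript starts held none of the 4 motifs. STE2 was annotated with a transcript start 502 bases ahead of its coding sequence, and the paired alpha2 and Mcm1 sites lie inside that stretch, beginning 229 and 218 bases before the start codon (chrVI:82351-82371, plus strand). A Ste12 site lies in the same stretch, beginning 197 bases before the start codon and downstream of the bases shown, in which the alpha2 and Mcm1 sites are in capitals.
STE2: CATGTAAatttCCTAATTGGG
Both motifs together were found in the 300 bases before the start codon of 3 of 4842 genes (STE2, RKM5 and TIS11).

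MF(ALPHA)1 (YPL187W, chrXVI:193598-194372, plus strand) encodes the precursor of alpha-factor, in which the pheromone stands in repeated units. Whether the repeats affected how reads were assigned was not tested. A unit of 39 bases of the MF(ALPHA)1 coding sequence (chrXVI:193906-193944) is shown.
MF(ALPHA)1 unit: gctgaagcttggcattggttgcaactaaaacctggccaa
It occurred in 4 copies, with at most 3 mismatches, in MF(ALPHA)1 and in 1 copy with 5 mismatches in MF(ALPHA)2, the second alpha-factor gene. The longest run of identical bases that both coding sequences share is 23 bases, and how reads matching both genes were handled is not given in the sources used here.

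MF(ALPHA)1 gave some of the most abundant newly made RNA of the unstressed cells. Its level at steady state was 2681 and 3082 CPM with DMSO and 2536 and 2567 CPM with 1-NA-PP1. Under heat shock it was 537 and 479 CPM with DMSO and 547 and 460 CPM with 1-NA-PP1. All 4 heat shock libraries lay far below all 4 steady state libraries, and under heat shock the ranges of both treatments overlapped. Per length, MF(ALPHA)1 stood at rank 2 of 4901 genes in the DMSO steady state libraries (3723 ± 366 CPM per kilobase, SD, n = 2) and at rank 98 after heat shock (656 ± 52.2 CPM per kilobase, SD, n = 2).

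**Figure D1:**
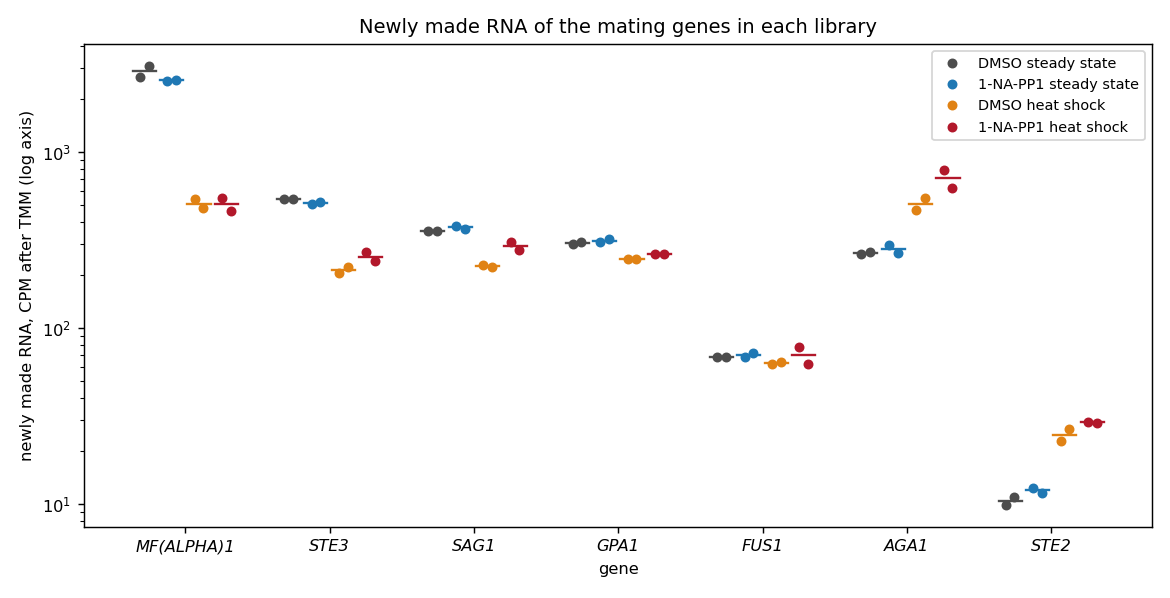
Newly made RNA of the 7 mating genes, in CPM on a log axis, with a point for each library and a short line at the mean of its group. MF(ALPHA)1, STE3, SAG1 and GPA1 lay lower in both heat shock groups than at steady state, and AGA1 and STE2 lay higher.

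Relative to the typical gene, newly made MF(ALPHA)1 RNA was 5.67-fold lower under heat shock with DMSO (log2 change -2.50, SE 0.115, edgeR adjusted p = 2.64e-06). This was the 12th most negative of the 4901 changes. With 1-NA-PP1 the fall was 5.07-fold (log2 change -2.34, SE 0.114, edgeR adjusted p = 3.24e-06), the 16th most negative. Of the 7 mating genes, 6 changed in each of these comparisons, 4 downward and 2 upward. Among all tested genes 58.5% changed with DMSO (29.6% rose and 28.9% fell) and 53.4% with 1-NA-PP1 (25.3% rose and 28.1% fell), so the count of 6 of 7 stands beside a background in which most genes changed.

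STE3 (YKL178C, chrXI:112938-114670, minus strand), the a-factor receptor of alpha cells, fell next most. It was at 540 and 537 CPM at steady state with DMSO and at 507 and 516 CPM with 1-NA-PP1. After heat shock it was at 206 and 223 CPM with DMSO and at 268 and 239 CPM with 1-NA-PP1, with no overlap between heat shock and steady state. The log2 change was -1.33 with DMSO (SE 0.077, edgeR adjusted p = 6.10e-06, 2.51-fold lower) and -1.01 with 1-NA-PP1 (SE 0.076, edgeR adjusted p = 2.75e-05). Per length it moved from rank 243 to rank 1347 of 4901 in the DMSO libraries.

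SAG1 (YJR004C, chrX:442677-444896, minus strand) encodes alpha-agglutinin, the wall protein by which alpha cells stick to a cells. It was at 357 CPM in both DMSO steady state libraries and at 380 and 365 CPM with 1-NA-PP1. Heat shock libraries held 227 and 220 CPM with DMSO and 307 and 278 CPM with 1-NA-PP1. SAG1 fell with DMSO (log2 change -0.67, SE 0.069, edgeR adjusted p = 0.000122) and with 1-NA-PP1 (-0.35, SE 0.069, edgeR adjusted p = 0.00347), and the difference between these falls did not pass its own test.

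AFB1, which encodes the a-factor barrier protein and is the other alpha-specific gene measured, was at 1030 and 1039 CPM with DMSO at steady state and at 547 and 676 CPM after heat shock. It fell too (log2 change -0.76, SE 0.113, edgeR adjusted p = 0.00074, with DMSO). All 4 measured alpha-specific genes, 3 of them from the 10 names, fell under heat shock with either treatment. Their median log2 change was -1.04 with DMSO, beside -0.01 for all genes, and -0.83 with 1-NA-PP1, beside -0.02. Of all tested genes 28.9% fell with DMSO and 28.1% with 1-NA-PP1.

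STE2 (YFL026W, chrVI:82078-84065, plus strand), the alpha-factor receptor of a cells, moved the opposite way at a very low level. It was at 9.83 and 10.9 CPM with DMSO and at 12.3 and 11.5 CPM with 1-NA-PP1 before heat shock. At 37 °C it reached 22.5 and 26.5 CPM with DMSO and 29.2 and 28.7 CPM with 1-NA-PP1, above every steady state library. These levels rest on 361 to 853 counts per library. STE2 rose 2.36-fold with DMSO (log2 change 1.24, SE 0.120, edgeR adjusted p = 8.74e-05) and by a log2 change of 1.28 with 1-NA-PP1 (SE 0.118, edgeR adjusted p = 7.59e-05).

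Even then STE2 stayed near the bottom of the genome. Per length it had rank 4682 of 4901 before heat shock and rank 4515 after it in the DMSO libraries, at 5.23 and 12.3 CPM per kilobase, where the median gene had 74.5 and 70.0. Of the 491 genes with the lowest levels, which include STE2, 27.1% rose and 23.8% fell under heat shock with DMSO, so a rise at this level was not rare. The annotated STE2 transcript overlaps that of BST1 on the other strand by 76 bases, and the strand setting of the counting is not given. BST1 did not pass the test (log2 change 0.08, edgeR adjusted p = 0.367). With DMSO its mean level was 146 CPM at steady state and 155 CPM under heat shock, far above STE2. How many of the STE2 counts came from the shared bases was not tested. The annotated transcript also holds 502 bases before the coding sequence, and the share of counts from that stretch was not tested.

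The other a-specific genes were lower still. MFA1 and MFA2, the a-factor genes, had 0 to 12 and 2 to 11 counts per library, ASG7 had 6 to 17, the a-agglutinin subunit gene AGA2 13 to 48, and BAR1, whose protease degrades alpha-factor, 115 to 443. With DMSO 4 of 6 rose under heat shock and none fell: STE2, BAR1 (log2 change 0.85), AGA2 (1.20) and ASG7 (1.97, SE 0.587, edgeR adjusted p = 0.0195). With 1-NA-PP1 the 4 that rose were STE2, BAR1, MFA1 and ASG7. Of all tested genes 29.6% rose with DMSO and 25.3% with 1-NA-PP1. Among the 491 genes with the lowest levels these shares were 27.1% and 26.9%. The median log2 changes over the 6 a-specific genes were 1.22 with DMSO and 1.49 with 1-NA-PP1. The steps of a few counts behind ASG7 and MFA1 make the sizes of their changes uncertain. The a-specific transcripts also mark a cells, and the part of such cells in the rise of STE2 was not tested. In bulk RNA, fewer cells making a transcript and less of it made per cell cannot be told apart.

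**Figure D2:**
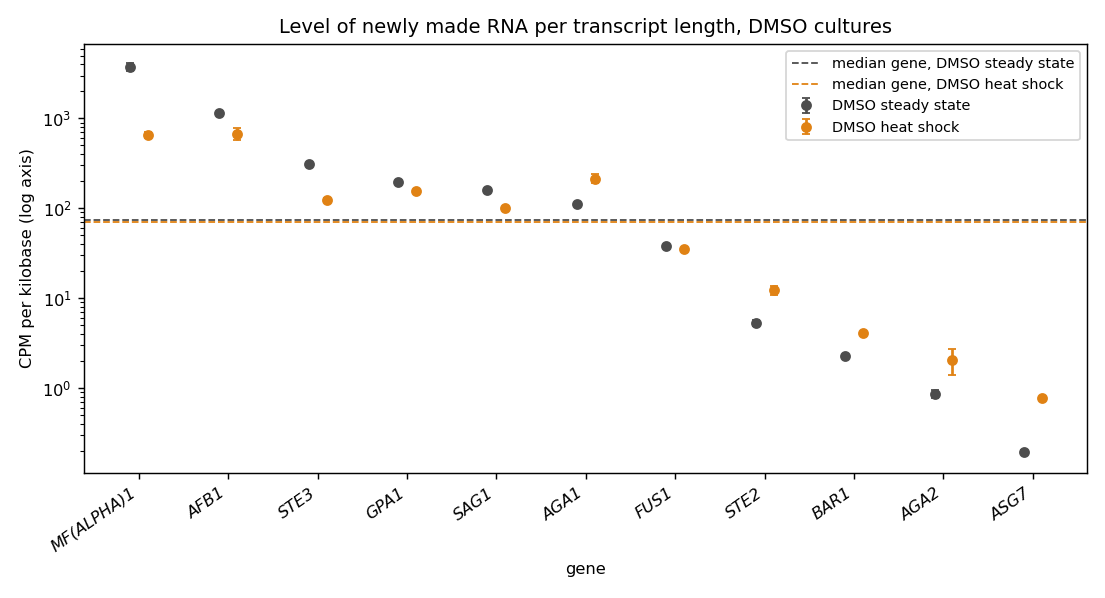
Mean newly made RNA per transcript length in the DMSO libraries, in CPM per kilobase on a log axis, for alpha-specific, shared and a-specific mating genes, with SD bars over 2 libraries and dashed lines at the median gene of each group. MF(ALPHA)1 lies far above the median gene and STE2 far below it in both conditions, and they move toward each other under heat shock.

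AGA1 (YNR044W, chrXIV:703582-705945, plus strand) encodes the anchor subunit of a-agglutinin and is made in both mating types. Its levels were 262 and 271 CPM with DMSO and 297 and 265 CPM with 1-NA-PP1 before heat shock. They were 467 and 545 CPM with DMSO and 788 and 624 CPM with 1-NA-PP1 under heat shock, so every heat shock library lay above every steady state library. The rise was 1.9-fold with DMSO (log2 change 0.92, SE 0.123, edgeR adjusted p = 0.000417) and 2.52-fold with 1-NA-PP1 (log2 change 1.33, SE 0.124, edgeR adjusted p = 8.05e-05). Per length AGA1 moved from rank 1516 to rank 621 with DMSO and stood at rank 357 with 1-NA-PP1 under heat shock.

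FUS1 (YCL027W, chrIII:71658-73446, plus strand), a membrane protein of cell fusion and the usual readout of Ste12 activity, did not pass edgeR's test in any comparison. It was at 67.8 and 68.0 CPM with DMSO and at 68.3 and 72.0 CPM with 1-NA-PP1 before heat shock. At 37 °C it was at 62.5 and 63.7 CPM with DMSO and at 77.7 and 62.0 CPM with 1-NA-PP1. The log2 change under heat shock was -0.10 with DMSO (95% interval -0.35 to 0.14, edgeR adjusted p = 0.429) and -0.01 with 1-NA-PP1 (95% interval -0.25 to 0.24, edgeR adjusted p = 0.969). AGA1 and FUS1 both carry the Ste12 site printed above, and AGA1 rose while FUS1 did not pass the test. STE2 rose too, but its Ste12 site came from another window, before the start codon. The share of genes with a Ste12 site in such windows was not counted. FUS1 overlaps HBN1 on the other strand by 103 bases of the annotated transcripts, and HBN1 fell (log2 change -1.14 with DMSO, edgeR adjusted p = 0.00067), so reads in the shared stretch could count for either without strand information.

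GPA1 (YHR005C, chrVIII:113398-114961, minus strand), the G protein subunit that holds the pathway off until pheromone binds, fell slightly. Its levels were 298 and 306 CPM with DMSO and 306 and 320 CPM with 1-NA-PP1 before heat shock. At 37 °C they were 246 and 245 CPM with DMSO and 262 and 264 CPM with 1-NA-PP1, below all steady state libraries. The log2 change was -0.30 with DMSO (SE 0.060, edgeR adjusted p = 0.00334) and -0.25 with 1-NA-PP1 (SE 0.060, edgeR adjusted p = 0.00826). The libraries of heat shock and steady state did not overlap for 7 of 7 mating genes with DMSO, where 83.9% of all genes did not overlap.

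In order of their change under heat shock with DMSO, the alpha-specific MF(ALPHA)1, STE3 and SAG1 lay lowest and the a-specific STE2 highest, with GPA1, FUS1 and AGA1 between. With 1-NA-PP1, AGA1 (1.33) and STE2 (1.28) stood in the reverse order. Among neighbours in the DMSO order, the 95% intervals overlapped for GPA1 and FUS1 and for AGA1 and STE2. The authors' deposited table of the DMSO comparison has the same order, with log2 changes of -2.82 for MF(ALPHA)1, -1.63 for STE3, -0.98 for SAG1, -0.61 for GPA1, -0.41 for FUS1, 0.63 for AGA1 and 0.93 for STE2. The median gene of the authors' deposited table was at -0.32, and that shift applies to all of its values. All 7 were past 0.05 in the authors' deposited table with DMSO, FUS1 included (adjusted p = 0.0453). In the authors' deposited table of the 1-NA-PP1 comparison, whose median gene was at -0.66, MF(ALPHA)1 (-2.96, adjusted p = 1.34e-09) and STE3 (-1.63, adjusted p = 0.00236) were past 0.05. SAG1 (-0.98, adjusted p = 0.0802), GPA1 (-0.88, adjusted p = 0.0985), AGA1 (0.70, adjusted p = 0.23), STE2 (0.64, adjusted p = 0.258) and FUS1 (-0.61, adjusted p = 0.279) were not past it, and AGA1 again stood above STE2.

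**Figure D3:**
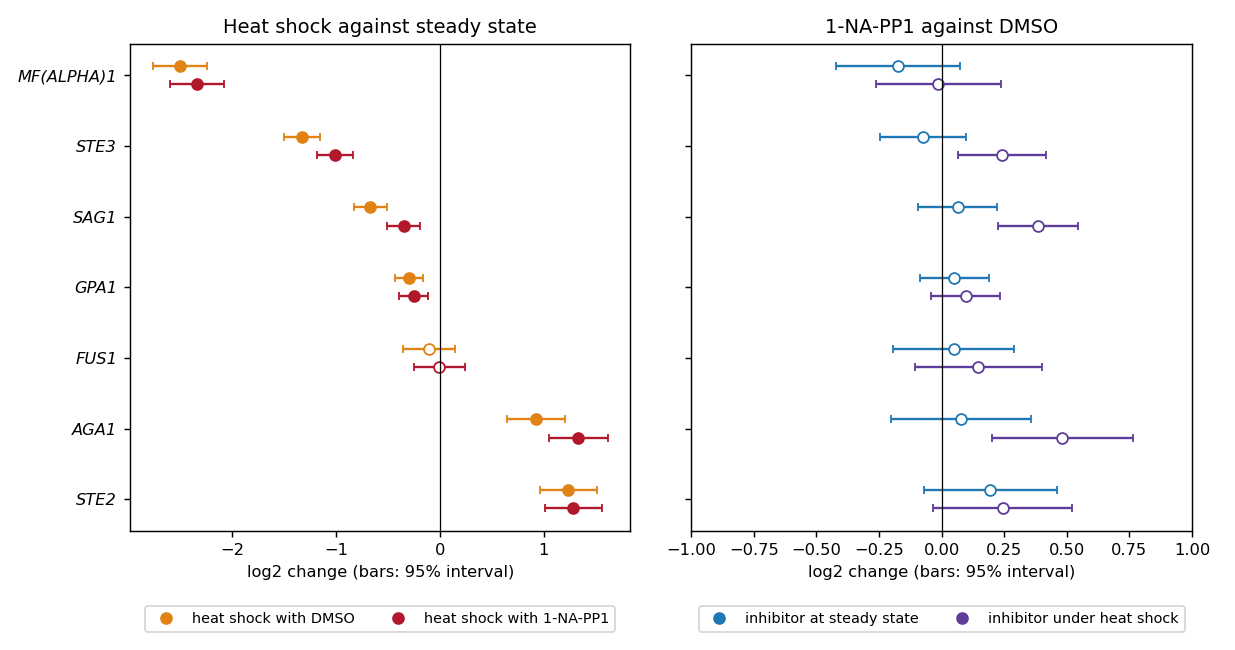
Log2 changes of the 7 mating genes with 95% intervals, for heat shock against steady state on the left and for 1-NA-PP1 against DMSO on the right, with filled points where the edgeR adjusted p was under 0.05. The changes run from -2.50 for MF(ALPHA)1 to 1.24 for STE2 with DMSO on the left, and no point is filled on the right.

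The rest of the pathway was described by gene lists. Their counts stand beside 29.6% of all tested genes that rose and 28.9% that fell under heat shock with DMSO. With 1-NA-PP1 the shares over all genes were 25.3% and 28.1%. Of 18 genes of the pheromone signalling cascade, 5 rose and 6 fell under heat shock with DMSO, and the median log2 change was 0.01. Those that fell included STE4, the G protein subunit that carries the signal (-0.62), CDC42, a polarity GTPase (-0.45), and MSG5, a phosphatase of the pathway (-0.42). Those that rose included the kinase gene STE11 (0.64), AKR1 (0.55) and the scaffold gene STE5 (0.34). STE12 itself did not pass the test (log2 change -0.16, edgeR adjusted p = 0.149). With 1-NA-PP1, 6 rose and 5 fell.

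Of 13 genes induced by pheromone through Ste12, including AGA1, FUS1 and GPA1, 3 rose and 6 fell with DMSO, and 3 rose and 4 fell with 1-NA-PP1. CIK1, a motor protein partner needed for nuclear fusion, fell most (-0.92), and PRM4 (-0.63) and KAR4, a regulator of nuclear fusion genes (-0.40), fell as well. PRM5 (0.79), AGA1 and ASG7 rose. Of all tested genes 58.5% changed with DMSO and 53.4% with 1-NA-PP1. The median log2 change of the 13 genes was -0.16 with DMSO, beside -0.01 over all genes.

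Among 7 tested genes of the mating type loci and their regulators, 4 fell and 1 rose with DMSO. CYC8, a partner in repression of the a-specific genes, fell (log2 change -0.58, SE 0.066, edgeR adjusted p = 0.000197), as did SIR3 (-0.55), SIR2 (-0.32) and MCM1 (-0.30). SIR1 rose (0.41), and TUP1, the other part of the Cyc8 repressor, did not pass the test (0.10, edgeR adjusted p = 0.351). With 1-NA-PP1, 3 fell and 1 rose. Beside this list and the next, 58.5% of all tested genes changed with DMSO and 53.4% with 1-NA-PP1. Of 10 genes that peak around the M/G1 boundary of the cell cycle, 5 rose and 3 fell with DMSO, led by the cell separation genes CTS1 (1.91) and EGT2 (1.68), and by the replication gene MCM7 downward (-1.09). These values stand beside the changes of MF(ALPHA)1, STE3 and STE2, and their part in them was not tested.

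**Figure D4:**
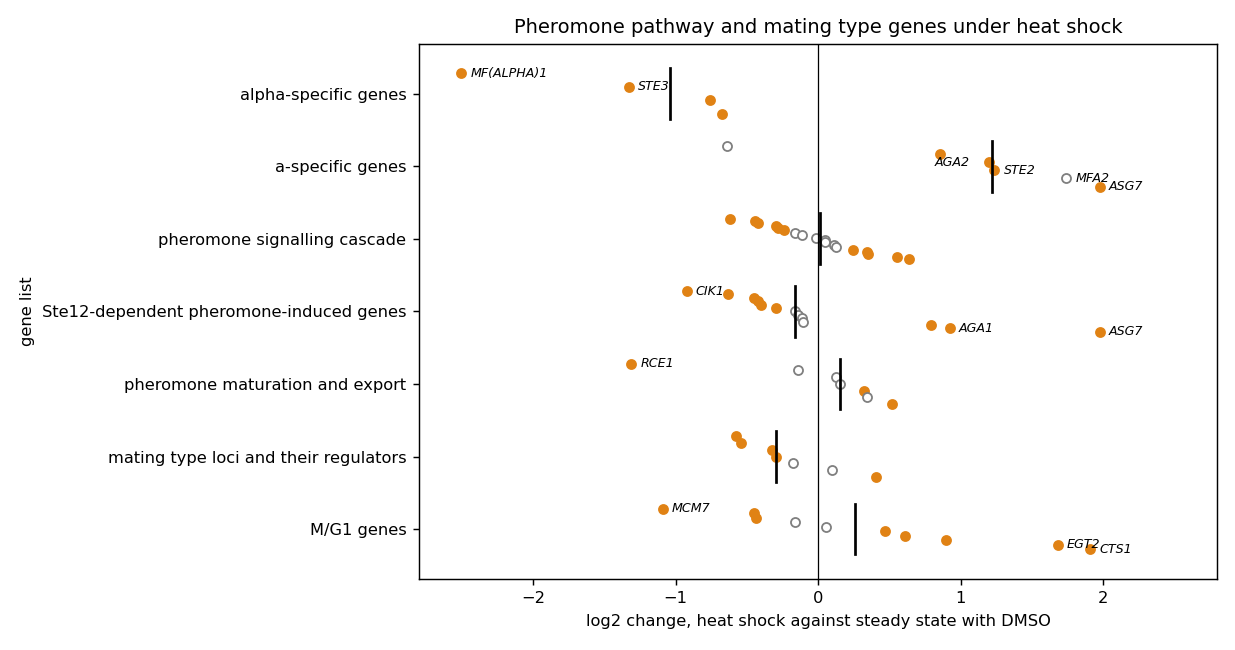
Log2 changes under heat shock with DMSO of 7 gene lists around the pheromone pathway, with a point for each gene, filled where the edgeR adjusted p was under 0.05, and a vertical bar at the median of each list. The alpha-specific genes lie wholly below 0, the a-specific genes lie above 0 except MFA1, and the signalling cascade spreads around 0.

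With Srb10 blocked at steady state, none of the 7 mating genes passed edgeR's test, and none of the 4901 genes did (0%). Even so, 1608 genes had an unadjusted edgeR p under 0.05, and DESeq2 called 994 and limma voom 749. The libraries of 1-NA-PP1 at steady state differed most from each other, and all groups share 1 estimate of the spread. The largest changes of mating genes were 0.19 for STE2 (SE 0.115, 95% interval -0.07 to 0.46, edgeR adjusted p = 0.272) and -0.18 for MF(ALPHA)1 (SE 0.108, 95% interval -0.42 to 0.07, edgeR adjusted p = 0.289). The other 5 lay between -0.07 and 0.08. No mating gene was called in this comparison by DESeq2 or limma voom either.

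Under heat shock the inhibitor comparison had 0 of 7 mating genes past the threshold by edgeR, and 16 of 4901 genes (0.326%). SAG1 came closest, at 307 and 278 CPM with 1-NA-PP1 and 227 and 220 CPM with DMSO (log2 change 0.39, SE 0.070, 95% interval 0.23 to 0.55, edgeR adjusted p = 0.0703). AGA1 was at 0.48 (SE 0.122, 95% interval 0.20 to 0.76, edgeR adjusted p = 0.124) and STE3 at 0.24 (SE 0.076, 95% interval 0.07 to 0.42, edgeR adjusted p = 0.199). Unadjusted p-values in the same edgeR model were 0.000513 for SAG1, 0.00413 for AGA1 and 0.0127 for STE3. DESeq2 called SAG1 (adjusted p = 0.000295) and AGA1 (adjusted p = 0.0138), and limma voom called SAG1 alone (adjusted p = 0.047). The direction of all 3 was reversed with the factors behind the authors' normalised counts, which move the median of all genes to -0.62 on the log2 scale.

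The log2 changes of the other 4 genes were 0.24 for STE2 (edgeR adjusted p = 0.391), 0.15 for FUS1 (edgeR adjusted p = 0.576), 0.10 for GPA1 (edgeR adjusted p = 0.494) and -0.01 for MF(ALPHA)1 (edgeR adjusted p = 0.972). For MF(ALPHA)1 the 95% interval was -0.26 to 0.24 with TMM scaling, and its value was 1.94 with the deposited factors and -0.60 with those recovered from the normalised values. The median of the 7 genes was 0.24, beside 0.00 for all genes.

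Whether the inhibitor acted differently at the 2 temperatures was tested as the difference of its effects, which equals the difference of the heat shock responses with and without 1-NA-PP1. None of the 7 mating genes passed edgeR's test, and 1 of 4901 genes did (0.0204%). All 7 estimates were above 0, and they share the same 8 libraries. SAG1 and STE3 were at 0.32 (SE 0.098 and 0.107, edgeR adjusted p = 0.357 for both) and AGA1 at 0.41 (SE 0.172, edgeR adjusted p = 0.366), with unadjusted edgeR p-values of 0.0105, 0.0178 and 0.0457. The falls of SAG1 and STE3 under heat shock are therefore not shown to differ between 1-NA-PP1 and DMSO. DESeq2 called 24 genes over the whole table in this comparison, and no mating gene. In both inhibitor comparisons and in their difference, edgeR called no gene of the other lists described above.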

How the data were processed

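Newly made RNA of 8 libraries was measured as a deposited table of counts per gene. Per the submitters' processing notes, reads passed through HTSeq, SAMtools, cutadapt 1.9.1, DESeq2 and STAR 2.5.2b (order not stated) with the build sacCer3, and per the labels' protocols libraries were made from 100 ng of RNA. The strand used in counting is not given in the sources used here. The authors also deposited normalised counts (a signal, counts divided by a factor per library), the factors (a ratio to the first library), and tables of log2 changes with p-values and scores (the test statistics), used here for comparison only.

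Counts were tested with edgeR 4.0.16 in R 4.3.3: filterByExpr with a minimum count of 10, TMM scaling and 1 quasi-likelihood model of 4 groups, with Benjamini-Hochberg adjustment and a threshold of 0.05. Intervals have a confidence level of 0.95. Fitted comparisons were the inhibitor at each temperature, heat shock with each treatment, and the difference of the inhibitor effects. Alternatives were DESeq2 1.42.0, limma 3.58.1 (voom), other factors, no filter, the replicate block and leaving out each library. The fitting was tested on simulated data. Libraries of a group differed by more than counting noise (chi-square per degree of freedom of 10.4 to 150, highest for 1-NA-PP1 at steady state). The genes named are the 7 measured members in full, other genes of the lists that passed the test or define them, and for each member the gene whose log2 levels correlate best. The members and lists were chosen with earlier results of these data known.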

Additional observations from a re-analysis of the deposited data

How the results depend on the processing

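Under heat shock with DMSO the 6 calls kept direction and threshold under every alternative run, and FUS1 was called in addition with the deposited factors. With 1-NA-PP1 the members called fell from 6 to 2 with the deposited factors, where AGA1 (0.70, adjusted p 0.374), GPA1 (-0.88, 0.283), SAG1 (-0.98, 0.243) and STE2 (0.64, 0.423) lost the call, and all genes called fell from 2617 to 206. For the inhibitor under heat shock the members called were 0 by edgeR, 2 by DESeq2, 1 by limma voom, 7 with the deposited factors and 0 to 2 when 1 library was left out: SAG1 and AGA1 passed without 1-NA-PP1 steady state replicate 1 or replicate 2. The deposited factors move the median of all genes to -0.21, 1.98, -0.32 and -0.66 (inhibitor at steady state, inhibitor under heat shock, heat shock with DMSO, heat shock with 1-NA-PP1). The factor file for the heat shock libraries holds the numbers 0.91, 0.326 and 0.218 of another file, whereas the normalised counts follow 0.621, 1.10 and 1.57. With the replicate block the members called were 6, 6, 0, 0 and 0, and all genes called for the inhibitor under heat shock fell from 16 to 4. Correlations of same-numbered deviations between groups ran from -0.31 to 0.26, which does not settle whether replicate numbers mark pairs. The main model did not use them.

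Signs turned for FUS1 and in the comparisons where edgeR called no member, and the cause was not tested. At steady state with the inhibitor the deposited factors gave -0.16 (AGA1), -0.22 (FUS1), -0.22 (GPA1), -0.19 (SAG1) and -0.0537 (STE2), and no filter gave -0.00331 for FUS1. Under heat shock with the inhibitor, MF(ALPHA)1 was 1.94 with the deposited factors, and the factors behind the normalised counts gave -0.12 (AGA1), -0.45 (FUS1), -0.52 (GPA1), -0.22 (SAG1), -0.39 (STE2) and -0.37 (STE3). FUS1 under heat shock with 1-NA-PP1 was 0.0194 with both median-of-ratios factors and DESeq2. Leaving out 1 library gave, for the inhibitor at steady state, -0.00818 to 0.16 (AGA1), -0.0034 to 0.0858 (FUS1) and -1.15e-05 to 0.0833 (GPA1); under heat shock -0.13 to 0.12 (MF(ALPHA)1) and -0.0169 to 0.31 (FUS1). It gave -0.19 to 0.14 for FUS1 under heat shock with 1-NA-PP1, and -0.0136 to 0.31 (FUS1) and -0.0308 to 0.23 (STE2) for the difference. Over all genes, calls for the inhibitor at steady state were 0 by edgeR, 994 by DESeq2, 749 by limma voom and 0 to 1712 with 1 library left out. For the inhibitor under heat shock they were 16, 230, 65 and 0 to 235, with 47 from its 4 libraries alone, 4855 with the deposited factors and 0 with those behind the normalised counts. For the difference they were 1, 24, 1 and 0 to 848, and 0 without the filter, with median-of-ratios factors or with the block. Depth limits the genes with few counts, such as MFA1, MFA2, ASG7 and PGU1.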

Other observations

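Of 7 genes for maturation and export of the pheromones, 3 changed under heat shock with DMSO. Beside this list and the next, 58.5% of all tested genes changed (29.6% rose and 28.9% fell). RCE1, a protease that trims the a-factor precursor, fell (log2 change -1.31, edgeR adjusted p = 0.00028), and KEX1, which trims the alpha-factor precursor (0.52), and STE24 (0.32) rose. KEX2, the protease that cuts alpha-factor out of its precursor, did not pass the test (0.13). Of 6 genes of filamentous growth that share Ste12 with the mating genes, PGU1, a pectin-degrading enzyme (1.53), and MGA1 (1.17) rose, and SHO1 (-0.42), TEC1 (-0.33) and KSS1 (-0.28) fell with DMSO. PGU1 had only 13 to 50 counts per library, so the size of its rise is uncertain.

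The genes whose log levels ran most like each member over the 8 libraries were, as Pearson's r and a description only, HTB1, a histone H2B gene, for MF(ALPHA)1 (0.999), INA1 for STE3 (0.999), MTL1 for STE2 (0.997), TIP1 for AGA1 (0.996), SAS3 for GPA1 (0.996), KAR4 for SAG1 (0.991) and YCR064C for FUS1 (0.927). All 8 libraries enter each value, and the heat shock libraries share a treatment and a lower depth.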
